A study of Equus caballus with 37 samples.

Results

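FOXN2, ZFP91 and ZNF618 are 3 genes for proteins that bind DNA or regulate transcription, and their expression was followed in the blood of Arabian horses over race training. They were taken as rows of the gene count table by their Ensembl identifiers, ENSECAG00000008390 for FOXN2, ENSECAG00000002280 for ZFP91 and ENSECAG00000020621 for ZNF618, and are 3 of 26991 genes in that table. All 3 passed the filter on low counts in each of the 6 comparisons between periods. Jugular blood was drawn into RNA-stabilising tubes from Arabian mares and stallions, with training as the only treatment in the labels, and 37 RNA libraries were sequenced. T0 comprised 6 untrained horses (2 mares and 4 stallions), of which 5 are labelled as 2.5 years old and 1 as 3 years old. T1 comprised 12 libraries (5 mares, 7 stallions) taken in March after the slow canter phase. T2 comprised 11 libraries (4 mares, 7 stallions) taken in May after the intense gallop phase, and T3 comprised 8 (4 mares, 4 stallions) taken in October, when the racing season ended. Horses sampled in T1, T2 or T3 were 3 years old and came from the same set of horses in training. The labels name no horse, so libraries were compared as independent samples. Training and season differ together among T1, T2 and T3 and cannot be told apart there. Between T0 and the other periods some of the horses and, by most labels, their age differ as well as training. By the study's scheme T0 was sampled in October. Season therefore also differs between T0 and T1 or T2, and cannot be told apart from training there.

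FOXN2 belongs to the forkhead family, whose members bind DNA through a winged-helix domain and act as transcription factors. ZFP91 is a zinc finger protein and an atypical ubiquitin ligase that stabilises the kinase NIK, by which it takes part in the noncanonical NF-κB pathway of immune cells. ZNF618 is a zinc finger protein that binds UHRF2 and takes part in the recognition of hydroxymethylated cytosine in DNA. By symbol, in the RefSeq annotation of the horse assembly TB-T2T, FOXN2 lies between PPP1R21 and FBXO11 and ZNF618 between RGS3 and AMBP, without overlap. ZFP91 lies between LPXN and CNTF and overlaps both, and because the library kit does not mark strand, reads from such overlaps may be uncertain in their gene. The study also measured FOXN2 by quantitative PCR, and the primers are shown because they are the oligonucleotides that define FOXN2 there. By that method the study found no significant difference in FOXN2 between periods, though it describes a trend similar to that of its sequencing. Those PCR values were not analysed here. Each primer is 20 bases long, with a GC content of 50% for the forward and 45% for the reverse primer, and both are written 5′ to 3′.
FOXN2 forward primer: tttgctactgcaccaacagg
FOXN2 reverse primer: tgcaggagaagcaaaaggtt

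Total counts per library ranged from 3810631 to 14932603, with a median of 10611594. At that median and before scaling, 1 CPM, the unit of expression per library, rested on about 10.6 counts. Libraries were scaled with TMM factors, which correct the total for a library's composition. With scaling, 1 CPM rested on fewer counts where the total and factor were low. In T1 replicate 11, 16 counts of FOXN2 gave 10.2 CPM, while in T0 replicate 1, 311 counts gave 24.2 CPM. The factor lay between 1.17 and 1.24 in T0, between 0.949 and 1.21 in T2 and between 1.05 and 1.25 in T3. In T1, 5 of the 12 libraries (replicates 1, 2, 3, 4 and 11) had factors from 0.410 to 0.696, below those of the other 7 (0.922 to 1.14). Fold changes and count ratios of the 3 genes that involve T1 are therefore also given without these 5 libraries. In the study's listing, the T1 samples with these 5 numbers have the lowest shares of uniquely mapped reads of that period. Those numbered 1, 2, 3 and 4 are also the only T1 samples of sequencing pool 1. By order in the listing, replicates 1 and 2 are the only T3 samples of that pool. They had the lowest values of T3 for all 3 genes. The only T2 samples of pool 1 fall on replicates 2 and 7, which were lowest in T2 for ZFP91 but not both for FOXN2 or ZNF618. The match to that listing is by number or order alone, and whether mapping or pool bears on the 3 genes was not tested. No library was a duplicate of another of its period, since chi-square per degree of freedom was 14.5 or more in all 164 pairs. CPM are not corrected for transcript length, so levels are compared between libraries and not between genes.

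FOXN2 was low in the blood of horses in training in March and May and high in untrained horses and at the end of the season. In T0 its lowest, median and highest values were 18.8, 22.2 and 26.0 CPM, and the mean was 22.1 ± 3.12 CPM (SD, n = 6). In T1 they were 2.91, 5.86 and 11.6 CPM, with a mean of 6.25 ± 2.59 CPM (SD, n = 12). All libraries of T1 lay below all libraries of T0. In T2 the lowest, median and highest values were 3.00, 8.41 and 13.1 CPM (mean 8.10 ± 3.39 CPM, SD, n = 11), and in T3 they were 14.6, 33.2 and 43.03 CPM (mean 29.9 ± 11.1 CPM, SD, n = 8). T2 overlapped T1 and neither T0 nor T3. The 8 libraries of T3 held 15.4, 14.6, 35.3, 22.5, 32.0, 43.03, 41.8 and 34.4 CPM in the order of their numbers, so replicates 1 and 2 were the lowest and lay under every library of T0. These values rest on 253 to 363 counts per library in T0, 16 to 95 in T1, 30 to 157 in T2 and 169 to 749 in T3.

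ZFP91 was also lower on average in T1 and T2 than in T0 and T3, by smaller fold changes than FOXN2. In T0 the lowest, median and highest values were 22.8, 25.2 and 28.8 CPM, with a mean of 25.3 ± 2.04 CPM (SD, n = 6). In T1 they were 11.8, 16.1 and 35.4 CPM, with a mean of 18.5 ± 6.59 CPM (SD, n = 12). The T1 libraries with low TMM factors were the 5 highest of that period for ZFP91, from 19.5 to 35.4 CPM, against 11.8 to 16.7 CPM in the other 7, so only the first set reached the range of T0 or exceeded it. In T2 the values ran from 12.04 over a median of 15.7 to 22.6 CPM (mean 16.9 ± 3.00 CPM, SD, n = 11), just under the lowest library of T0. In T3 the 8 libraries held 20.2, 20.5, 31.4, 26.3, 31.5, 31.9, 30.4 and 21.1 CPM (mean 26.7 ± 5.33 CPM, SD, n = 8). Replicates 1, 2 and 8 of T3 overlapped T2, and the other 5 lay above it. ZFP91 had 32 to 232 counts per library in T1 and 112 to 556 in T2 and T3.

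ZNF618 had the fewest counts of the 3 genes, from 9 to 58 per library in T1 and 21 to 79 in T2, and its single values are the least precise. In T0 its lowest, median and highest values were 3.83, 7.32 and 8.67 CPM, with a mean of 6.77 ± 1.96 CPM (SD, n = 6). In T1 they were 1.80, 3.28 and 6.42 CPM (mean 3.91 ± 1.65 CPM, SD, n = 12), and in T2 they were 1.93, 3.64 and 6.49 CPM (mean 3.63 ± 1.41 CPM, SD, n = 11). T1 and T2 covered almost the same range and overlapped the lower libraries of T0. In T1 the libraries with low TMM factors held 3.23 to 6.42 CPM and the other 7 held 1.80 to 5.11 CPM, so these sets overlapped. In T3 the 8 libraries held 5.55, 5.11, 12.8, 9.74, 11.6, 14.2, 13.4 and 10.1 CPM (mean 10.3 ± 3.43 CPM, SD, n = 8). Replicates 1 and 2 of T3 were again the lowest, and they were the only libraries of T3 that overlapped T1 and T2. Replicate 6 of T3 was the highest of its period for all 3 genes.

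**Figure D1:**
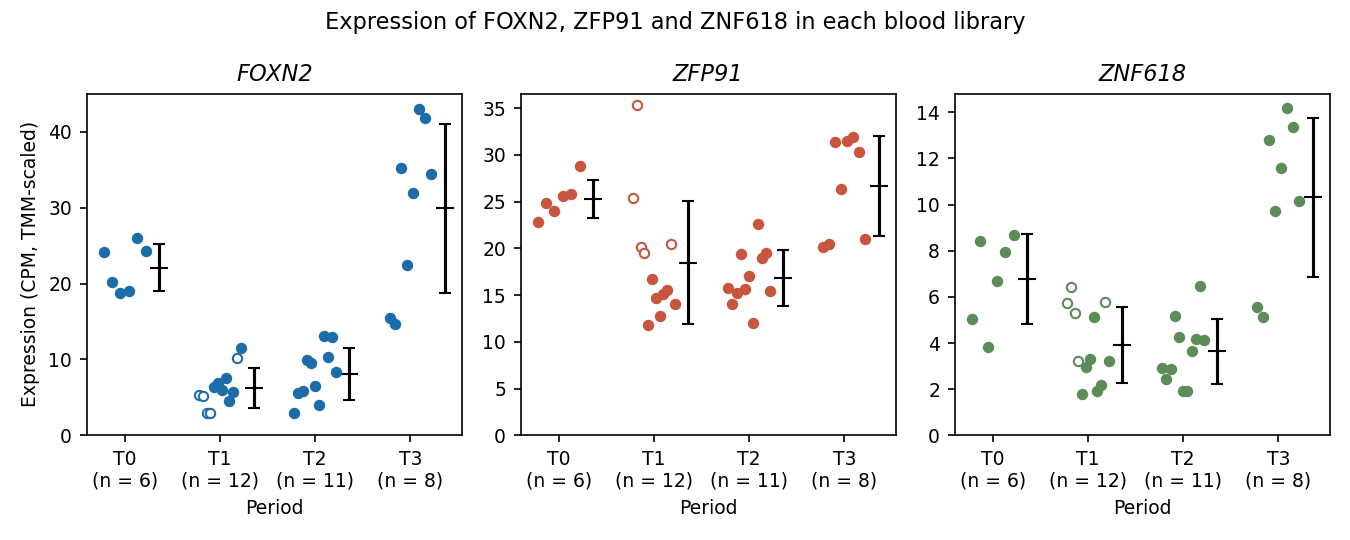
Expression of FOXN2, ZFP91 and ZNF618 in CPM (TMM-scaled, linear axes from 0, a scale of its own per gene) in each library of the 4 periods; black bars give the mean and SD, and open points are the 5 T1 libraries with TMM factors under 0.8. FOXN2 in T1 and T2 lies below every library of T0 and T3, while ZFP91 and ZNF618 overlap more between periods.

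Expression was compared between periods with the quasi-likelihood test of edgeR over all genes, and differential expression required a fold change of 1.3 or more with an adjusted p-value under 0.05. Of 18 member tests (3 genes in 6 pairs of periods), 12 met these criteria, 6 lower and 6 higher in the later-named period. Of all tested genes, 58.1% were called in either direction from T0 to T1, 33.4% from T0 to T2 and 19.6% from T0 to T3. The share was 32.0% from T1 to T2, 65% from T1 to T3 and 44% from T2 to T3. All 3 genes were named by the study from these same libraries, so their counts of called tests are not independent evidence of a direction. The 6 comparisons also share libraries with each other. In whole blood, fewer cells of a type and less RNA per cell cannot be told apart.

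Between untrained horses and horses after the slow canter phase, all 3 genes were lower in T1, where 29.2% of all tested genes were called lower. FOXN2 fell by 1.86 on the log2 scale (standard error 0.23, adjusted p = 9.3e-06 from edgeR), a 3.62-fold lower level, and 12 of 12 libraries lay under the T0 median. T1 did not overlap T0 for FOXN2, a pattern that 13.4% of 12025 genes showed in that direction. ZNF618 fell by 0.86 (standard error 0.27, adjusted p = 0.012 from edgeR), and ZFP91 fell by 0.48 (standard error 0.19, adjusted p = 0.038 from edgeR). Of the 12 T1 libraries, 10 lay under the T0 median of ZFP91. The median over the 3 genes was -0.86, against -0.050 over all tested genes. Without the 5 libraries with low TMM factors, the log2 fold changes were -1.65 for FOXN2, -0.78 for ZFP91 and -1.17 for ZNF618, and all 3 remained differentially expressed, so the difference of ZFP91 was larger without them. The ZFP91 call was lost with RLE size factors (adjusted p = 0.052 from edgeR), when the 1.3-fold threshold itself was tested with glmTreat (adjusted p = 0.2 from edgeR), and without each of T1 replicates 5, 6, 7, 8, 9, 10 and 12 or T0 replicate 6 in turn, and the ZNF618 call was lost in libraries thinned to the smallest total (adjusted p = 0.081 from edgeR).

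Between untrained horses and horses after the intense gallop phase, all 3 genes were lower in T2, against 16.5% of all tested genes. FOXN2 fell by 1.41 on the log2 scale (standard error 0.24, adjusted p = 0.0011 from edgeR), which is 2.66-fold. ZFP91 fell by 0.56 (standard error 0.12, adjusted p = 0.0027 from edgeR) and ZNF618 fell by 0.87 (standard error 0.24, adjusted p = 0.011 from edgeR). For FOXN2 and ZFP91 no library of T2 reached the lowest of T0, as for 5.81% of 12025 genes. For ZNF618 11 of 11 libraries of T2 lay under the T0 median, though the ranges overlapped. When the log2 TMM factor entered the fit, the log2 fold changes were -0.65, -0.23 and -0.35 for FOXN2, ZFP91 and ZNF618, and 0 of the 3 genes and 0 of all genes were called (adjusted p = 0.39, 0.53 and 0.71 from edgeR). With glmTreat the calls of ZFP91 and ZNF618 were lost (adjusted p = 0.13 and 0.086 from edgeR), and after thinning that of ZNF618 was. In the scaling of all 37 libraries, the TMM factors were 1.17 to 1.24 in T0 (median 1.2) and 0.949 to 1.21 in T2 (median 1.075). Only T2 replicates 4 (1.208) and 8 (1.172) reached the range of T0, so a fit with the factor can hardly separate it from the period.

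Between the slow canter and the intense gallop phases, 0 of the 3 genes were differentially expressed with edgeR, against 32.0% of all tested genes called in either direction. With DESeq2 the count was also 0, and 0 of the 3 genes had an unadjusted p below 0.05. FOXN2 had a log2 fold change of 0.41 (95% confidence interval -0.11 to 0.92, adjusted p = 0.19 from edgeR), ZFP91 of -0.10 (-0.44 to 0.23) and ZNF618 of -0.042 (-0.55 to 0.47). The intervals leave room for changes of about 1.3-fold or more in each gene. Without the 5 T1 libraries with low TMM factors, the values were 0.24, 0.24 and 0.32, so ZFP91 and ZNF618 changed sign, and 0 of all genes were then called.

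From the intense gallop phase to the end of the racing season, all 3 genes rose, against 22.5% of all tested genes called higher in T3. FOXN2 rose by 1.86 on the log2 scale (standard error 0.26, adjusted p = 5.9e-05 from edgeR), a 3.63-fold difference, and its size ranked 74th of 11599 tested genes. All 8 libraries of T3 lay above all 11 of T2, as for 3.77% of 12025 genes. ZNF618 rose by 1.48 (standard error 0.23, adjusted p = 0.00014 from edgeR), or 2.79-fold, and 2.02% of tested genes had a larger rise. ZFP91 rose by 0.64 (standard error 0.12, adjusted p = 0.00047 from edgeR), or 1.56-fold, and 15.3% of tested genes had a larger rise. For each gene 8 of 8 libraries of T3 lay above the T2 median, and the median over the 3 genes was 1.48 against -0.053 over all tested genes. All 3 calls held in each of 16 alternative analyses and in each of 19 fits with 1 library left out, with lowest log2 fold changes over them of 1.40 for FOXN2, 0.42 for ZFP91 and 1.12 for ZNF618.

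From the slow canter phase to the end of the season, all 3 genes were also higher in T3, against 32.9% of all tested genes called higher. FOXN2 showed the largest difference of any comparison of these genes, 2.29 on the log2 scale (standard error 0.25, adjusted p = 5.8e-07 from edgeR), or 4.89-fold. T3 did not overlap T1 for FOXN2, as for 11.6% of 12025 genes in that direction. ZNF618 rose by 1.46 (standard error 0.26, adjusted p = 6.5e-05 from edgeR) and ZFP91 by 0.55 (standard error 0.18, adjusted p = 0.012 from edgeR). In each gene 8 of 8 libraries of T3 exceeded the T1 median. Without the 5 T1 libraries with low TMM factors, the values were 2.11 for FOXN2, 0.88 for ZFP91 and 1.80 for ZNF618, and all 3 genes were still called. The ZFP91 call was lost when the 1.3-fold threshold itself was tested with glmTreat (adjusted p = 0.11 from edgeR).

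Between untrained horses and horses at the end of the season, both sampled in October by the study's scheme, 0 of the 3 genes were differentially expressed with edgeR, against 19.6% of all tested genes called in either direction. The study, which used DESeq2, lists FOXN2 and ZNF618 as up-regulated in this comparison, so the results differ. With DESeq2 on the counts used here, FOXN2 was not called either (log2 fold change 0.43, adjusted p = 0.14 from DESeq2). The cause of the difference from the study was not tested. ZNF618 had a log2 fold change of 0.59 (95% confidence interval 0.088 to 1.10, unadjusted p = 0.0244, adjusted p = 0.081 from edgeR), with 6 of 8 libraries of T3 above the T0 median. FOXN2 had one of 0.42 (-0.047 to 0.89, adjusted p = 0.18 from edgeR) and ZFP91 one of 0.059 (-0.19 to 0.30, adjusted p = 0.75 from edgeR). The T3 libraries of FOXN2 spread to both sides of the T0 range, with replicates 1 and 2 below it. The adjusted p of ZNF618 lay close to the threshold. It was called with DESeq2 (log2 fold change 0.61, adjusted p = 0.045) and with edgeR without T3 replicate 1 (0.68) or replicate 2 (0.70), and FOXN2 and ZNF618 were called when the log2 TMM factor entered the fit (0.53 and 0.67).

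**Figure D2:**
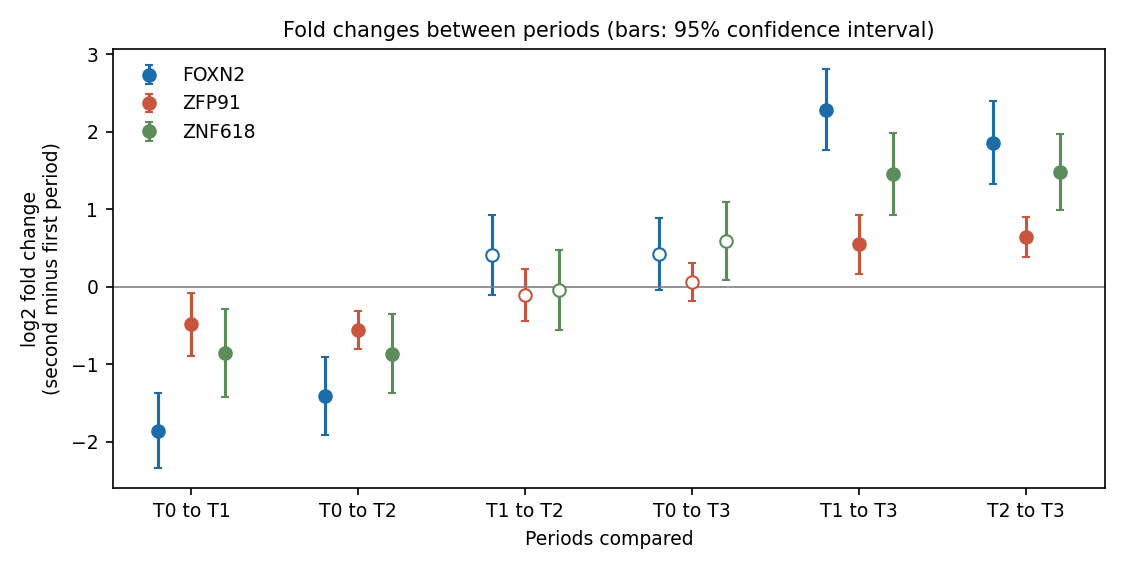
Log2 fold changes of FOXN2, ZFP91 and ZNF618 between each pair of periods (second minus first) from edgeR, with 95% confidence intervals; filled points were differentially expressed and open points were not. All 3 genes lie below 0 from T0 to T1 and T2 and above 0 from T1 and T2 to T3, with FOXN2 farthest from 0 in each of these 4 comparisons.

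Ordered by mean, FOXN2 rose from T1 over T2 and T0 to T3, and ZFP91 and ZNF618 from T2 over T1 and T0 to T3. In each gene the lower pair of neighbours (T1 and T2) and the upper pair (T0 and T3) did not meet the criteria for a difference, while every step between a lower and an upper period did.

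Whether the genes changed by unequal amounts was examined with the ratio of their counts within each library, which does not depend on the scaling factor. From T0 to T3, period by period, the mean log2 ratio of FOXN2 to ZFP91 counts was -0.21 ± 0.21, -1.59 ± 0.85, -1.17 ± 0.51 and 0.087 ± 0.43 (SD; n = 6, 12, 11 and 8). The ratio was thus low in T1 and T2, and T2 and T3 did not overlap, with -0.60 at the highest in T2 and -0.49 at the lowest in T3. It fell by 1.39 from T0 to T1 (adjusted p = 0.0016), fell by 0.96 from T0 to T2 (adjusted p = 0.00097), and rose by 1.68 from T1 to T3 and by 1.25 from T2 to T3 (adjusted p = 0.00043 in each) in two-sided exact permutation tests, adjusted over 18 ratio tests. FOXN2 therefore changed more than ZFP91 in these 4 comparisons. In T1 the ratio was lowest in 4 of the 5 libraries with low TMM factors, and without the 5 the differences were -0.89 from T0 to T1 and 1.18 from T1 to T3 (adjusted p = 0.014 and 0.0042, exact permutation test).

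For ZNF618 to ZFP91 the mean log2 ratios of the same 4 periods were -1.95 ± 0.40, -2.27 ± 0.47, -2.28 ± 0.44 and -1.43 ± 0.34 (SD; n as before). The ratio rose by 0.85 from T1 to T3 (adjusted p = 0.002) and by 0.85 from T2 to T3 (adjusted p = 0.0015, exact permutation tests), so ZNF618 rose more than ZFP91 towards the end of the season. From T0 to T1 and from T0 to T2 it differed by -0.32 in each (adjusted p = 0.19 in each, exact permutation tests), and an unequal fall of these genes was not shown. From T0 to T3 it was 0.53 higher (adjusted p = 0.037, exact permutation test), and this call was lost without any of T0 replicates 1, 3 and 4 or T3 replicates 3, 4, 6, 7 and 8.

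For FOXN2 to ZNF618 the mean log2 ratios were 1.75 ± 0.43, 0.68 ± 0.86, 1.11 ± 0.46 and 1.51 ± 0.16 in that order of periods (SD; n as before). T3 had the narrowest spread, from 1.202 to 1.759, although FOXN2 itself ranged from 14.6 to 43.03 CPM there. The ratio differed by -1.06 from T0 to T1 (adjusted p = 0.018), -0.64 from T0 to T2 (adjusted p = 0.026), 0.83 from T1 to T3 (adjusted p = 0.021) and 0.40 from T2 to T3 (adjusted p = 0.032, exact permutation tests). Without the 5 T1 libraries the differences that involve T1 were -0.49 and 0.26 and no longer passed (adjusted p = 0.13 and 0.22, exact permutation test). The T0 to T2 call was lost without T0 replicate 1 (-0.54) or 3 (-0.53), and the T2 to T3 call without T3 replicate 6 (0.39), 7 (0.38) or 8 (0.37).

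**Figure D3:**
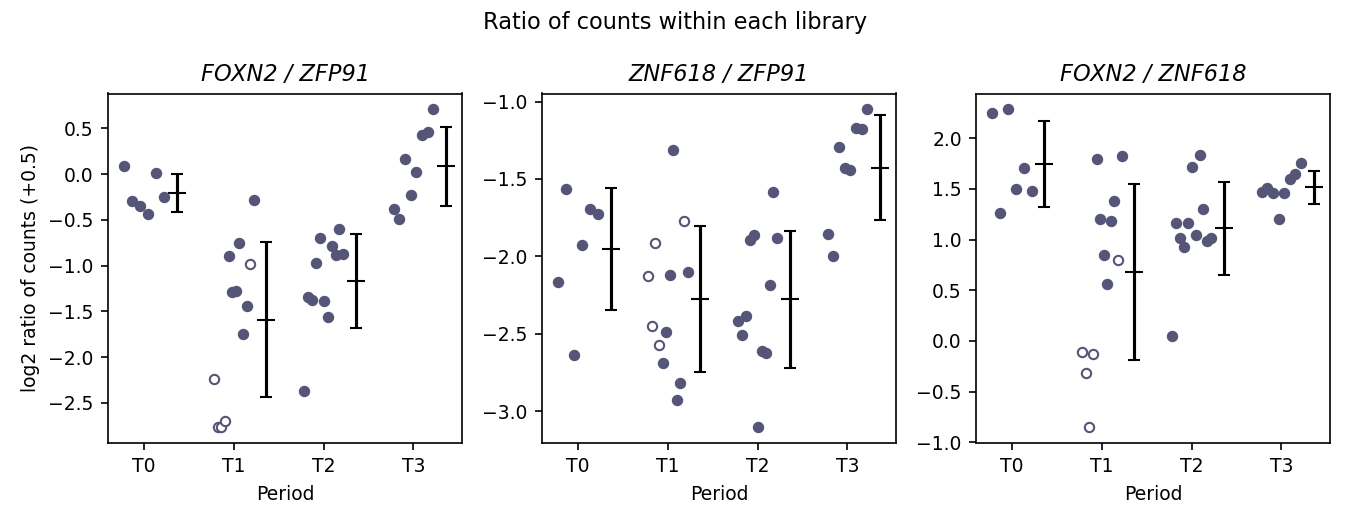
Log2 ratio of the counts (plus 0.5) of 2 genes within each library of the 4 periods; black bars give the mean and SD, and open points are the 5 T1 libraries with TMM factors under 0.8. FOXN2 to ZFP91 is lower in T1 and T2 (means -1.59 and -1.17) than in T0 and T3 (-0.21 and 0.087), and 4 open points are the lowest of T1.

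The 3 genes were set beside 12 other transcription regulators for which the study prints identifiers, among them DNA-binding factors, coactivators and chromatin proteins. The study chose these on the same libraries, so their counts are not independent evidence. All 12 were called lower in T1 and in T2 than in T0, against 29.2% and 16.5% of all tested genes, with median log2 fold changes of -1.44 and -0.88. All 12 were called higher in T3 than in T1 and T2, against 32.9% and 22.5% of all tested genes, with medians of 1.79 and 1.21. NFAT5, a factor that responds to osmotic stress, had the largest rise from T2 to T3, by 2.56 (standard error 0.34; edgeR adjusted p = 4.1e-05), and next came KMT2C, a histone methyltransferase (2.26, standard error 0.30). ZNF814, a zinc finger gene, had the smallest (0.64, standard error 0.20, adjusted p = 0.011 from edgeR). FOXN2 and ZNF618 lay within this range, and ZFP91 lay at its lower end. From T0 to T3, where 19.6% of all tested genes were called, only NCOA2, a nuclear receptor coactivator, was called among the 12 (0.66, adjusted p = 0.0066 from edgeR). From T1 to T2, where 32.0% were called, only SRCAP, a chromatin remodelling ATPase, was (0.88, adjusted p = 0.014 from edgeR). These 2 were named after their values were seen.

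The enzymes GAPDH and SDHA, common reference genes, gave another pattern. SDHA was called in 0 of the 6 comparisons, with log2 fold changes from -0.11 to 0.10. GAPDH was higher in T1 than in T0 (0.51, adjusted p = 0.025 from edgeR) and lower in T3 than in T1 (-0.41, adjusted p = 0.042 from edgeR).

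**Figure D4:**
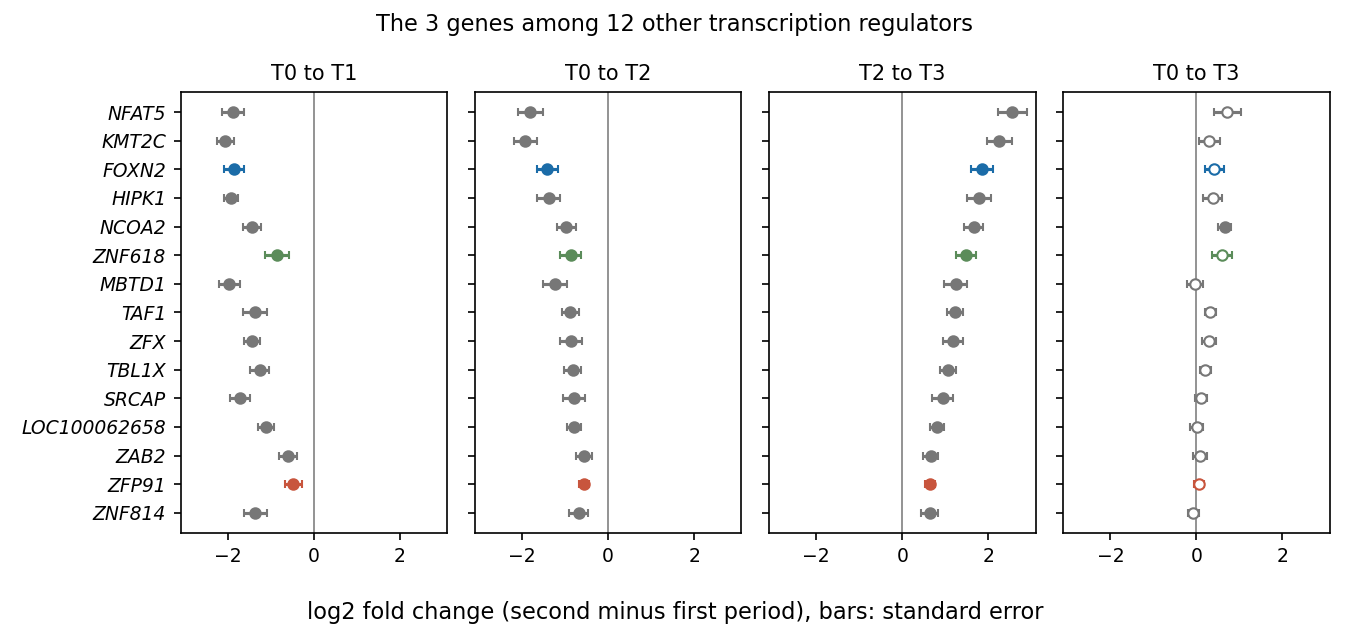
Log2 fold changes with standard errors from edgeR for FOXN2 (blue), ZFP91 (red), ZNF618 (green) and 12 other transcription regulators (grey) in 4 comparisons, ordered by the change from T2 to T3; filled points were differentially expressed. All 15 points lie below 0 from T0 to T1 and T2 and above 0 from T2 to T3, and from T0 to T3 only NCOA2 is filled.

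The genes with the most similar course were sought by Pearson correlation of log2 CPM over the 37 libraries, as a description, since all points share libraries, scaling and period. Of 12024 other genes, FOXN2 was most like HIPK1, a kinase of transcription regulators (r = 0.97, and 0.87 after period means were removed). Among the 73 other genes with an identifier in the study, TMED5, a cargo protein of the secretory pathway (0.96), and GOPC, a Golgi protein (0.95), came next. ZFP91 was most like ENSECAG00000019507 (r = 0.92, and 0.84 after period means were removed), and ZNF618 was most like ENSECAG00000003448 (0.91 and 0.79), which the sources used here pair with no symbol. For ZNF618, KMT2C reached 0.88. Between the 3 genes themselves, r was 0.83 for ZFP91 and ZNF618, 0.79 for FOXN2 and ZNF618 and 0.65 for FOXN2 and ZFP91, and with period means removed it was 0.69, 0.49 and 0.23. In likeness to FOXN2, ZNF618 ranked only 889th and ZFP91 only 2023rd of the 12024 other genes. ZNF618 ranked 18th in likeness to ZFP91.

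Within single periods, 12 relations between the genes were tested by permutation. How often other pairs of genes were as closely related was not tested. In T3, FOXN2 and ZNF618 rose and fell together over the 8 libraries (Pearson r = 0.96, adjusted p = 0.006, Spearman rho = 0.98, adjusted p = 0.0048, exact permutation tests), and without the 2 libraries farthest from the FOXN2 median r was 0.84. ZFP91 and ZNF618 were also related in T3 (r = 0.87, adjusted p = 0.023, rho = 0.86, adjusted p = 0.035, exact permutation tests; r = 0.77 without 2 libraries). In T2, FOXN2 was related to ZFP91 (r = 0.76, rho = 0.81) and to ZNF618 (r = 0.74, rho = 0.72), with an adjusted p of 0.023 for each r by permutation and adjusted p of 0.02 and 0.039 for rho, and without 2 libraries r was 0.83 and 0.79. In T1, ZFP91 and ZNF618 gave r = 0.69 and rho = 0.71 over 12 libraries (adjusted p = 0.023 and 0.035, permutation tests; r = 0.51 without 2 libraries). That relation did not hold in the 7 T1 libraries with higher TMM factors (r = -0.066, rho = -0.071, p = 0.85 and 0.91, exact permutation tests). The remaining 7 relations, all 3 of T0 among them, did not pass (adjusted p for r from 0.074 to 0.93, permutation tests).

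Mares and stallions were compared in their change between periods. The sex by period term passed in 0 of 18 member tests with edgeR, of which 0 had an unadjusted p below 0.05, and for 0 of all genes in any pair, with 2 mares in T0 and 4 or 5 in the other periods. The largest term was that of FOXN2 from T1 to T2, where the change in stallions minus that in mares was -0.75 on the log2 scale (p = 0.154, adjusted p = 0.31 from edgeR). In T1 FOXN2 averaged 5.17 ± 3.01 CPM in mares (SD, n = 5) and 7.02 ± 2.15 CPM in stallions (SD, n = 7), so the sexes differed by less than their spread.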

How the data were processed

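Blood RNA of 37 samples was sequenced as single-end reads with a kit that does not mark strand. The authors trimmed reads with Flexbar, aligned them to EquCab2 (STAR, Ensembl 83 gene models) and quantified genes with RSEM. The deposited values are RSEM expected counts, which the authors rounded and did not normalize; the authors' 3 smaller tables per comparison were not used. Periods and sexes were taken from the labels.

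The analysis used edgeR 4.0.16 in R 4.3.3 (filterByExpr, TMM factors, quasi-likelihood F-test of 2 periods at a time, Benjamini-Hochberg adjustment over all genes tested), and the steps were tested on simulated data. Standard errors were derived from the log2 fold change and F. Intervals and tests cover the spread between these libraries, and repeated sampling of a horse is not modelled. Within-library ratios used counts plus 0.5, with exact permutation tests, or 100000 resamples for T1 against T2. The smallest p these allow is 0.00067 or less in each pair.

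The genes, the gene list and the tests were chosen with earlier results of these data known. Named beside the 3 genes were the list's 2 largest and 1 smallest changes from T2 to T3, 2 reference genes, and per gene the most similar genes. Lists for forkhead genes, the noncanonical NF-κB pathway, hydroxymethylcytosine and blood cell types were not used, because the reference at hand does not pair symbols with the table's identifiers. Numbers in the sample titles did not pair libraries: same-numbered samples were of the same sex in 6 of 11 cases in T1 and T2, and their deviations from the period means correlated at -0.24 to 0.46. Alternatives, DESeq2 1.42.0 and sva 3.50.0 among them, are given in the closing section.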

Additional observations from a re-analysis of the deposited data

How the results depend on the processing

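For the counts of genes called, of ratios that differed and of sex by period terms, 321 of 345 values under alternatives were within 1.5 times the value reported, and 24 were not. A count of 2 in place of 3 is within 1.5 times, so the loss of 1 call among 3 is not counted as a change. The tally therefore does not measure the stability of single calls. With sample numbers as a replicate block, 1 of the 3 genes was called from T0 to T1, ZFP91 lost its call from T1 to T3 (adjusted p = 0.069 from edgeR), and 0 ratios differed between T0 and T1, T2 or T3. With 6 numbers shared, the smallest p of these paired tests passes the adjustment only where most of the 18 ratio tests also reach so low a p. These paired tests therefore say little about stability. The block moved no other count of the 3 genes or their ratios by over 1.5 times. With the log2 TMM factor as a covariate, 0 genes were called from T0 to T2 and 2 from T0 to T3. When the 1.3-fold threshold itself was tested (glmTreat), 1 gene was called from T0 to T2, and ZFP91 was not called from T0 to T1 or from T1 to T3. DESeq2 called 1 gene from T0 to T3. Thinning to the smallest total ended the ZNF618 call from T0 to T2 (-0.48, adjusted p = 0.27 from edgeR). Without each library in turn, 0 to 1 gene was called from T0 to T3, 1 to 2 ratios differed from T0 to T2 and 0 to 1 from T0 to T3. With a difference of medians, 1 ratio differed from T0 to T1, 1 from T0 to T2 and 0 from T0 to T3. Without the 5 T1 libraries, an alternative chosen after seeing the data, 1 ratio differed from T0 to T1. The cause of these changes was not tested.

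Changes of sign fell on differences that had not passed their test. Between T1 and T2, ZFP91 had a log2 fold change of 0.014 with upper-quartile factors, 0.043 with genes of at least 6 counts in every library, 0.13 with the first surrogate variable, 0.22 with the TMM covariate, 0.0073 after thinning, 0.24 without the 5 T1 libraries and 0.41 with library totals alone, the last also chosen after seeing the data. That of ZNF618 was 0.072, 0.11, 0.24, 0.34, 0.26, 0.32 and 0.48 in the same order, and 0.016 with no filter on low counts. Without each library in turn they ranged from -0.15 to 0.0066 and from -0.14 to 0.052. The ZNF618 to ZFP91 ratio differed between T1 and T2 by 0.012 within numbers, by 0.074 without the 5 T1 libraries, and by -0.073 to 0.084 without each library. Without the 5 libraries the ratios of FOXN2 to ZFP91 and to ZNF618 differed by -0.072 and -0.15. ZFP91 differed by -0.029 from T0 to T3 after thinning.

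ZNF618 rested on as few as 9 counts in a library and FOXN2 on 16. How far depth or the spread between libraries limits the comparison of T1 with T2 was not tested. Over all genes, the calls that moved by over 1.5 times were as follows. With the TMM covariate they went from 6708 to 2795 (T0 to T1), 3900 to 0 (T0 to T2), 3584 to 0 (T1 to T2), 7452 to 4804 (T1 to T3) and 5107 to 2965 (T2 to T3). With glmTreat they were 668 from T0 to T2, 282 of 2295 from T0 to T3, 1018 from T1 to T2 and 1933 from T2 to T3. T1 to T2 gave 1 call with the surrogate variable, 0 without the 5 libraries and 1754 with library totals alone. T0 to T3 gave 717 with all libraries in 1 fit, 1457 with the block and 1463 after thinning, T0 to T2 gave 2113 with all libraries in 1 fit, and genes of at least 6 counts everywhere gave 2354 from T0 to T2 and 3212 from T2 to T3, from fewer genes tested.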
